A study of Caenorhabditis elegans with 3 samples.

Results

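The genes that encode the initiation and elongation factors of cytosolic protein synthesis were examined for LIN-15B at their promoters in Caenorhabditis elegans L1 larvae. Members were the protein-coding genes whose symbol begins with eif-, iff-, ife- or eef- followed by a number, plus ifg-1 and inf-1, which gave 40 of 19973 nuclear protein-coding genes. The rule reads gene names, and it was set with earlier results of these data known. By symbol, the 6 eef- genes were counted as elongation factor genes and the other 34 with the initiation factors and their relatives. The 34 include the eIF5A genes iff-1 and iff-2, although eIF5A helps ribosomes past difficult peptide bonds.

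Chromatin immunoprecipitation with sequencing (ChIP-seq) had been run on 1 group of 3 biological replicates, with no second condition. All 3 were whole L1 larvae, males and females pooled, of strain OP184, genotype unc-119(tm4063) III; wgIs184, in which the inserted transgene supplies lin-15B with an eGFP tag. Replicates 1 and 2 were labelled with the stock centre CGC as their source and replicate 3 with the name of the laboratory, so that source and replicate cannot be told apart. The antibody label names lin-15B while the descriptions name the eGFP fusion, and signal from the tagged copy cannot be told apart from signal of an endogenous protein. Whole larvae were used, so a weak peak in many cells and a strong peak in few cells cannot be told apart either.

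Protein synthesis starts when eIF2 brings the initiator tRNA to the small ribosomal subunit and the eIF4 factors recruit an mRNA by its cap. The eIF3 complex holds these parts together while eIF1 and eIF1A keep the scanning subunit in search of a start codon. Elongation then cycles through eEF1A, which delivers aminoacyl-tRNAs, its exchange factor eEF1B, and eEF2, which moves the ribosome along the mRNA. LIN-15B belongs to the synMuv B proteins, nuclear factors known for keeping germline genes silent in somatic tissue.

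Each deposited list holds 30000 intervals, background as well as peaks, with a signal value by the authors. Intervals were ranked here by that value within each list. A low rank number therefore means a strong peak, and a high one may be background. A promoter peak here has its summit between 500 bp upstream and 200 bp downstream of an annotated transcript start. A peak is called consistent where its irreproducible discovery rate (IDR), the expected share of irreproducible peaks among those ranked as well or better, was 0.05 or less in all 3 pairs of replicates. This held for 926 peaks of the series-wide list. Replicate 1 stood apart, since only 538 of its intervals had a q score of 2 or more, against 3083 in replicate 2 and 2206 in replicate 3. The depth behind the lists is unknown. The labels call the replicates biological, and no source used here says more about how separate their cultures were.

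Of the 40 translation factor genes, 15 (37.5%) had a consistent promoter peak, where 5.25% of all protein-coding genes had one. All 6 elongation factor genes were among them, and 9 of the 34 genes counted with the initiation factors (26.5%). The eIF5A gene iff-2 is one of these 9, so the split between the stages rests on gene names. The elongation factor count was 4 with promoters of 250 bp upstream and 100 bp downstream, without eef-1A.1 and eef-1A.2. Giving each peak to its nearest start alone left 5, without eef-1A.1, as did either rule that used no IDR, without eef-1B.2. The share of all protein-coding genes fell as well, to 3.51% with the shorter promoter and 3.78% with the nearest start. The rules without IDR gave 3.77% with the 1000 strongest peaks and 3.21% with the q score. A promoter peak of any strength was listed in every replicate for 21 of the 40 (52.5%), against 11.8% of all protein-coding genes. A further 13 had one in 2 replicates and 1 in a single replicate, and 5 had none listed. Of all 19973 protein-coding genes, 8400 had none listed.

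At the top of the lists, each replicate taken alone gave a similar share. Among the 926 strongest peaks of a replicate, as many as there were consistent peaks, promoter peaks reached 15 of the 40 genes in replicate 1 (37.5%), where the share of all genes was 4.72%. In replicate 2 they reached 15 (37.5%), with 5.22% of all genes. In replicate 3 they reached 18 (45%), with 5.7% of all genes. The mean over replicates was 40% ± 4.33 of the translation factor genes and 5.21% ± 0.49 of all genes (SD, n = 3). The spread between replicates was smaller than the distance between these means. Farther down the lists replicate 1 fell behind the others: among the 5000 strongest peaks replicate 1 reached 40% of the translation factor genes, replicate 2 70% and replicate 3 75%, a mean of 61.7% ± 18.9, against 12.4% ± 2.56 of all genes (SD, n = 3).

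**Figure D1:**
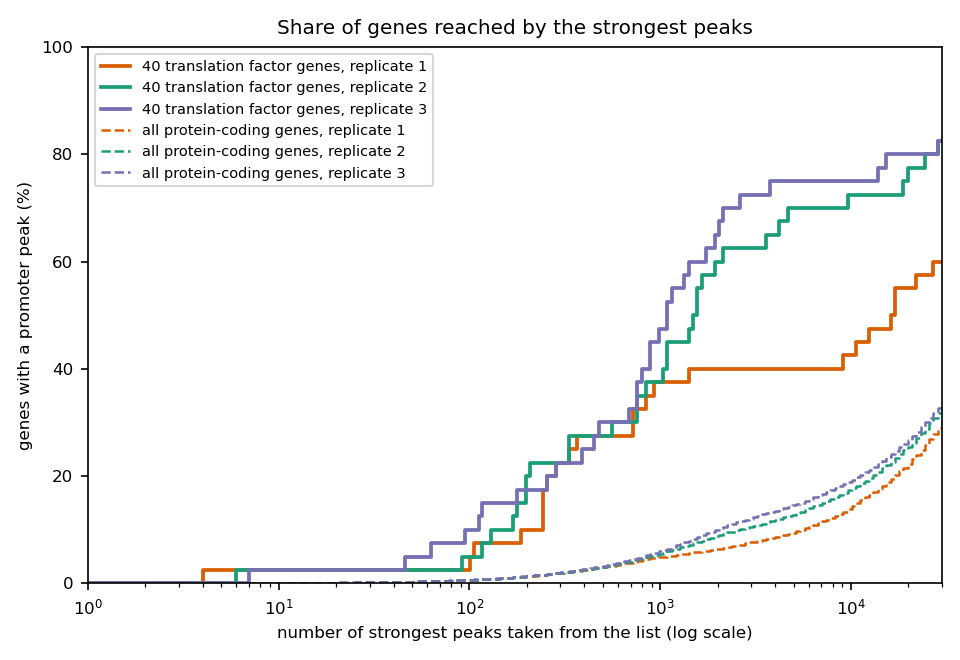
The x axis gives the number of strongest peaks taken from a replicate's list (log scale) and the y axis the percentage of genes whose promoter they reach, with solid lines for the 40 translation factor genes and dashed lines for all protein-coding genes, 1 colour per replicate. At 1000 peaks the solid lines stand between 37.5% and 47.5% and the dashed lines between 4.89% and 6.04%, and the solid line of replicate 1 is flat at 40% from 2000 to 5000 peaks.

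The strongest site was that of iff-2 (WBGene00002065), one of a pair of eIF5A genes. eIF5A is the hypusine-bearing factor that helps ribosomes past difficult peptide bonds, and iff-2 is the copy known for its role in somatic tissue. The peak ranked 4 in replicate 1, 6 in replicate 2, 7 in replicate 3 and 6 in the series-wide list, so that it was among the 10 strongest of each list. Its mean rank was 5.67 ± 1.53 (SD, n = 3), and its largest IDR over the 3 pairs was 6e-09. The summit lay 66 bp upstream of the start, on chromosome II at position 8561433 of ce11, between genes and in no other promoter. The germline paralogue iff-1 gave a different picture, with ranks of 1360, 3420 and 957 in replicates 1, 2 and 3. Its peak passed in the pairs 1 and 3 (IDR 0.00784) and 2 and 3 (IDR 0.0387) but not in 1 and 2 (IDR 0.136), so it was not consistent. The iff-1 peak lay 176 bp upstream of iff-1 and 103 bp upstream of the divergent cyclin-dependent kinase gene cdk-1.

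To show the DNA under these summits, the 101 bp around the summit are given for the consistent members whose window touched no exon of a protein-coding gene and could be printed here. Each reads 5′ to 3′ along the strand of the named gene, from the RefSeq sequence of WBcel235 (ce11), with CpG dinucleotides in capitals. They lie at chrII:8561383-8561483 for iff-2 (minus strand), chrIII:6972050-6972150 for eef-1A.1 (minus), chrII:14795115-14795215 for eif-3.B (plus), chrX:7823274-7823374 for eef-1A.2 (plus), chrIV:4810532-4810632 for eif-1.A (plus) and chrIV:15037138-15037238 for eef-1B.2 (plus).
iff-2: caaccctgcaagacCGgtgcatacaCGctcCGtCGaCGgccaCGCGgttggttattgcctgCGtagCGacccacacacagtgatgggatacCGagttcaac
eef-1A.1: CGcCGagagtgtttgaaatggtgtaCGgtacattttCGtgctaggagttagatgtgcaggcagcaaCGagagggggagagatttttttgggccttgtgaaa
eif-3.B: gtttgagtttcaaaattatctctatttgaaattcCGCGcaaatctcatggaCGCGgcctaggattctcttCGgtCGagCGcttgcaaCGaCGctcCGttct
eef-1A.2: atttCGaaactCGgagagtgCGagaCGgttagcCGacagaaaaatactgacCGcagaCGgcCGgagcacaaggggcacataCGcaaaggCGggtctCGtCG
eif-1.A: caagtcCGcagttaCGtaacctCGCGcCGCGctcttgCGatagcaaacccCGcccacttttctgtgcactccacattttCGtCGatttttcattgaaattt
eef-1B.2: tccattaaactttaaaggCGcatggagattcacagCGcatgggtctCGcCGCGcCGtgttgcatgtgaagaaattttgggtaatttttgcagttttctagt

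These windows hold 10, 5, 10, 12, 10 and 6 CpG dinucleotides in the order printed. Over all 15 consistent member peaks the count per 101 bp was 7.67 ± 2.82 (SD over 15 windows), against 7.88 ± 2.92 over the 756 consistent promoter peaks of all genes and 3.07 ± 2.27 over one window per protein-coding gene, centred 158 bp upstream of its start. These SDs describe the spread of single windows and not of the means. The set of all consistent promoter peaks includes the member peaks, and the difference between their means was not tested. In wider windows, reaching 100 bp to each side of the centre, observed over expected CpG came to 1.34 ± 0.374 at member peaks, 1.49 ± 0.38 at all consistent promoter peaks and 1.07 ± 0.477 at all promoters. GC content was 41.7% ± 6.58, 41.2% ± 6.44 and 34.2% ± 6.41 for the same sets of windows. Windows of all promoters were centred by the annotation and not by a summit, so the last set differs from the others in its centre as well.

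Short sequence matches were counted in the same wider windows on both strands. The 6-mer GAGCGC stood in 5 of 15 member windows (33.3%), in 32.3% of all consistent promoter peaks and in 3.97% of all promoters. The members with it were eef-1A.2, eef-2, eif-1.A, eif-2Bbeta and eif-3.B. An E2F-like motif, searched as TTCCCGC or one of its variants TTCGCGC plus TTGCCGC plus TTGGCGC, stood in 3 of 15 (20%), namely eef-1B.1, eef-1G and eef-2, against 26.9% of all consistent promoter peaks and 6.89% of all promoters. The repeat GAGAGA stood in 3 of 15 (20%), those of eef-1A.1, eef-1A.2 and eif-2Bbeta, against 27.4% and 15.3%. An E2F-like match overlapped a GAGCGC match in 1 of the 15 member windows. It did so in 12 of the 756 windows of all consistent promoter peaks and in 58 of the 19973 windows of all promoters. The window of iff-2, the strongest member, held none of these sequences, and neither did those of eef-1B.2, eif-1, eif-3.C, eif-3.E, eif-3.I and eif-6.

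The elongation factor genes spread over most of the range, from a mean rank of 130.33 for eef-1A.1, equal to that of eif-3.B, to 884.33 for eef-1B.2, the weakest of the 15. The eEF1A gene eef-1A.1 (WBGene00001168) had ranks of 231, 115 and 45 in replicates 1, 2 and 3, a mean of 130.33 ± 93.94 (SD, n = 3), and ranked 73 in the series-wide list. Its paralogue eef-1A.2 (WBGene00001169), on the X chromosome, had ranks of 359, 322 and 440, a mean of 373.67 ± 60.35. The order of the paralogues was thus the same in each replicate, with the ranks not overlapping. Peaks are rare on the X chromosome, where 53 of 2731 genes (1.94%) had a consistent promoter peak, and eef-1A.2 was the only one of the 3 X-linked translation factor genes with one. The peak of eef-1A.1 lay 388 bp upstream of that gene but 153 bp upstream of the divergent gene rfc-4, a replication factor C subunit gene, so the site does not tell the pair apart. Its summit also lay 15 bp from the annotated microRNA gene cel-mir-5549.

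The eEF1B exchange factor is encoded by eef-1B.1, eef-1B.2 and eef-1G. Ranks in replicates 1, 2 and 3 were 184, 88 and 172 for eef-1G, and 236, 194 and 373 for eef-1B.1. The peak of eef-1B.2 was weaker, with ranks of 910, 1020 and 723, which do not overlap those of the other subunit genes. Translocation factor gene eef-2 (WBGene00001167) had ranks of 255, 126 and 251, a mean of 210.67 ± 73.35 (SD, n = 3). The summits of all but eef-1B.2 lay close to the transcript start, 13 bp upstream for eef-1B.1, 19 bp for eef-2 and 38 bp for eef-1G. On the other strand the same summits lay 318 bp upstream of aco-2 for eef-1B.1, 246 bp upstream of clsp-1 for eef-2 and 142 bp upstream of ctf-4 for eef-1G. The summit of eef-1B.1 also lay within the annotated noncoding gene F54H12.9. The elongation factor gene was the nearer one in each of these shared promoters.

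**Figure D2:**
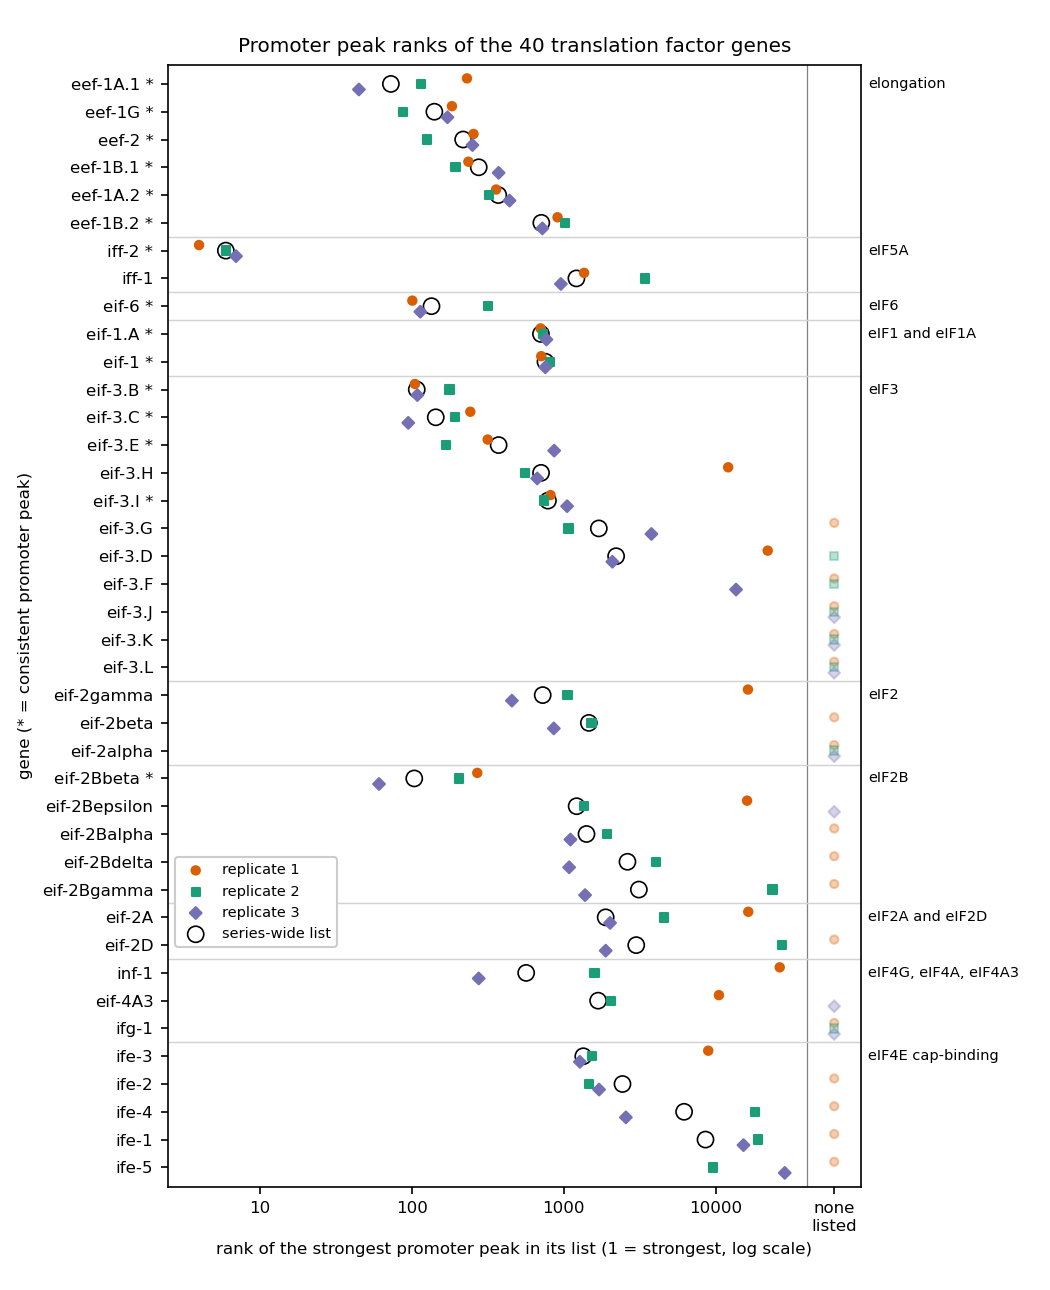
Each row is one of the 40 genes, grouped by role, and the x axis gives the rank of its strongest promoter peak (log scale, 1 is the strongest), with filled symbols for replicates 1 to 3, an open circle for the series-wide list and pale symbols at the right edge where none was listed. The 15 genes with a star have a consistent peak, the replicates of iff-2 lie between 4 and 7, and the replicate 1 symbol of each gene without a star other than iff-1 lies at rank 8909 or beyond, or at the right edge.

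Among initiation factors, the eIF3 complex was split. Of its 11 member genes, 4 had a consistent peak, against 5.25% of all protein-coding genes: eif-3.B, eif-3.C, eif-3.E and eif-3.I. The core scaffold gene eif-3.B (WBGene00001225) ranked 105, 177 and 109 in replicates 1, 2 and 3, and eif-3.C ranked 243, 193 and 95. Replicates spread more for eif-3.E, with ranks of 316, 168 and 865, and eif-3.I stood at 818, 739 and 1052. The last of these shared its promoter with abtm-1, which lay farther from the summit, at 253 bp against 217 bp for eif-3.I. A strong peak in replicates 2 and 3 only was seen for eif-3.H, with ranks of 555 and 669 there and 12047 in replicate 1, and it passed in the pair 2 and 3 alone (IDR 0.000203). Its summit lay 270 bp upstream of eif-3.H and 100 bp upstream of the divergent gene C41D11.3. For eif-3.G the ranks were 1072 and 3771 in replicates 2 and 3, with none listed in replicate 1. For eif-3.D they were 21921 in replicate 1 and 2087 in replicate 3. The promoter of eif-3.F had 1 listed peak, of rank 13577 in replicate 3, and those of eif-3.J, eif-3.K and eif-3.L had none. A consistent peak lay 921 bp upstream of eif-3.J, outside the promoter as defined.

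The start-codon selection factors eif-1 and eif-1.A both had a consistent peak, of moderate rank and with little spread. Ranks in replicates 1, 2 and 3 were 704, 730 and 769 for eif-1.A and 711, 810 and 756 for eif-1, so the pair overlapped. Both calls were lost with the shorter promoter and with a q score of 2 or more in every replicate in place of IDR, and that of eif-1 also with the nearest start only. The summit of eif-1.A lay 352 bp upstream of its start and in no other promoter. That of eif-1 lay 432 bp upstream of eif-1 and 14 bp inside the divergent gene vps-24, the only one of the 15 summits that fell within a protein-coding gene. The single eIF6 gene, eif-6, whose product binds the large subunit and keeps it from joining too early, ranked 101, 317 and 114. Its summit lay 338 bp upstream of eif-6 and 328 bp upstream of the proteasome gene pbs-2, close to the midpoint of the shared promoter.

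Genes for eIF2 and its exchange factor eIF2B had 1 consistent peak among 8, a count too small to set apart from the 5.25% of all genes. That peak, at eif-2Bbeta, ranked 270, 204 and 61 in replicates 1, 2 and 3, and its summit lay 153 bp upstream of eif-2Bbeta but 51 bp upstream of the divergent gene Y47H9C.8. It was lost when a peak was given to the nearest transcript start only. Other members of these complexes had peaks that replicate 1 lacked or ranked low. For eif-2gamma the ranks were 16256 in replicate 1, 1056 in replicate 2 and 456 in replicate 3, with an IDR of 0.000631 for the pair 2 and 3. For eif-2beta they were 1522 and 860 in replicates 2 and 3 (IDR 0.00314), and for eif-2Balpha 1926 and 1106 (IDR 0.00762), with none in replicate 1 for either. The remaining eIF2B genes did not pass in any pair: eif-2Bdelta ranked 4033 and 1085 in replicates 2 and 3, eif-2Bgamma 23584 and 1381, and eif-2Bepsilon ranked 16041 and 1355 in replicates 1 and 2. The promoter of eif-2alpha, whose product is the subunit phosphorylated under stress, had no listed peak. It starts 132 bp behind phb-1, a gene on the same strand with a consistent promoter peak of its own, and the nearest consistent summit lay 1806 bp upstream of eif-2alpha.

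No gene of the cap-dependent eIF4 group had a consistent peak, a count too small to set apart from the 5.25% of all genes. Without replicate 1, ife-2, ife-3, inf-1 and eif-4A3 of this group passed, as did 9.21% of all protein-coding genes. None of the 5 cap-binding eIF4E genes ife-1 to ife-5 was called, and only ife-3 had a promoter peak listed in all 3 replicates, with ranks of 8909, 1532 and 1276. It passed in the pair 2 and 3 (IDR 0.00439), as did ife-2, with ranks of 1472 and 1707 in those replicates (IDR 0.0074). Ranks for ife-4 were 18114 and 2561, for ife-1 18922 and 15190, and for ife-5 9574 and 28371, in replicates 2 and 3. The eIF4A helicase gene inf-1 ranked 276 in replicate 3 and 1591 in replicate 2 but 26296 in replicate 1, the widest span of any member listed in all replicates, and passed in the pair 2 and 3 (IDR 0.00481). The eIF4G scaffold gene ifg-1 had no listed promoter peak. The related helicase gene eif-4A3, known as a core of the exon junction complex, ranked 10475 and 2050 in replicates 1 and 2. In replicate 3 a peak of rank 1721 overlapped the series-wide one with its summit outside the promoter, and the site passed in the pair 2 and 3 (IDR 0.0123). The genes of the alternative tRNA delivery factors were not called either, with eif-2A at 16330, 4558 and 2016 in replicates 1, 2 and 3, and eif-2D at 27273 and 1887 in replicates 2 and 3.

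The number of calls depended on replicate 1, among translation factor genes and over all protein-coding genes. In that replicate the 15 consistent members reached to rank 910, iff-1 followed at 1360, and the next member was at rank 8909. A consistent call needs a pass in both pairs with replicate 1, so part of this gap follows from the call itself. A promoter peak in replicate 1 was missing for 16 of the 25 members without a consistent peak, and for 7 of the 25 in each of the other replicates. Of all protein-coding genes, only 30.2% had a promoter peak listed in replicate 1, 32.9% in replicate 2 and 33.7% in replicate 3. A missing peak was thus common over all genes in every replicate. Without replicate 1, 24 of the 40 translation factor genes passed, up from 15, against 9.21% of all protein-coding genes, up from 5.25%. All 6 elongation factor genes were called already, so none of them could be added. The added genes were eif-2Balpha, eif-2beta, eif-2gamma, eif-3.H, eif-4A3, ife-2, ife-3, iff-1 and inf-1, and the 15 others kept their call. The part of the lower number of high-scoring intervals of replicate 1 in this was not tested.

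**Figure D3:**
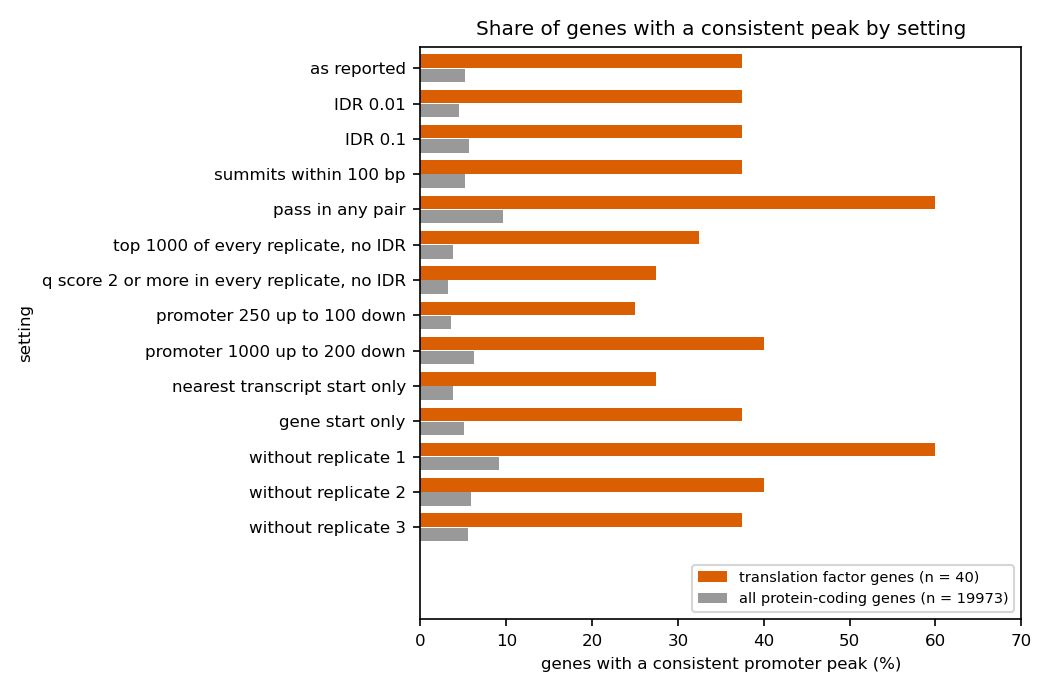
Bars give the percentage of genes with a consistent promoter peak under the reported setting and 13 alternatives, for the 40 translation factor genes (upper bar, orange) and all 19973 protein-coding genes (lower bar, grey). The orange bar spans 25% to 60% and the grey bar 3.21% to 9.66%, with both highest when a pass in any pair was enough or replicate 1 was left out.

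All 15 consistent summits lay upstream of the member's start, from 13 to 432 bp, with a median of 217 bp. Over all genes, 96.8% of 1060 pairs of a gene and a consistent promoter peak lay upstream, with a median of 184 bp. Summits are the centres of the deposited intervals in nearly all cases, 29888 of 30000 in the series-wide list to within 1 bp, so they locate a site no more finely than that. For iff-2 replicates 1, 2 and 3 placed the summit at -66, -59 and -73 bp from the start (negative is upstream), and for eif-3.B at -231, -244 and -238 bp. The widest spread among the 15 was at eef-1A.2, with -383 bp in replicate 1 and -320 bp in both others.

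**Figure D4:**
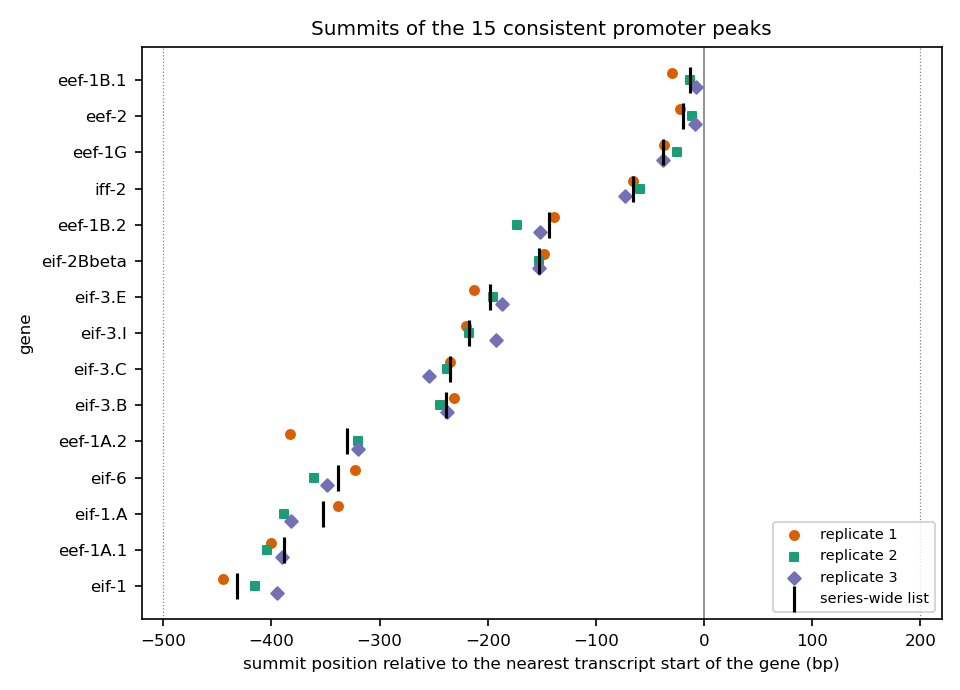
The x axis gives the summit position relative to the nearest transcript start of each gene (bp, negative is upstream) for the 15 genes with a consistent promoter peak, with symbols for replicates 1 to 3 and a bar for the series-wide list, and dotted lines at the promoter limits. All summits lie left of 0, and eef-1B.1, eef-2 and eef-1G lie closest to it.

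The promoter of another protein-coding gene held the same summit for 8 of the 15 genes (53.3%), close to the share over all 1060 pairs of a gene and a consistent promoter peak (56.3%). The other gene was the nearer one for eef-1A.1, eif-1, eif-2Bbeta and eif-6. The nearest upstream neighbour was divergent for 11 of the 15 members with a consistent peak (73.3%) and for 75.9% of all genes with one. It was divergent for 11 of the 25 other members (44%) and for 43.7% of all other genes. Member genes with and without a peak thus had shares close to those of all genes of the same kind. The summits in the promoter of no other protein-coding gene were those of iff-2, eif-3.B, eif-3.C, eif-3.E, eif-1.A, eef-1A.2 and eef-1B.2. Among these, the summit of eef-1A.2 lay 61 bp from the annotated noncoding gene R03G5.8.

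Other families of protein synthesis gave shares on either side. Of the 78 cytosolic ribosomal protein genes (rpl and rps) 52 had a consistent promoter peak (66.7%). Of the 32 aminoacyl-tRNA synthetase genes 2 had one (6.25%), close to the 5.25% of all protein-coding genes. The median over consistent genes of the mean replicate rank was 210.7 for translation factors, 185.3 for ribosomal proteins and 633.8 for the synthetases, against 479 over all 1048 protein-coding genes with a consistent peak. The differences between these families were not tested.

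Further genes that regulate or complete translation were taken from a list of 34 names, of which 29 were in the annotation. Against 5.25% of all protein-coding genes, 7 of these (24.1%) had a consistent promoter peak. They were drr-2, an eIF4H-like gene, the poly(A)-binding protein gene pab-1, the eIF2 kinase gene gcn-2, the ABC-F gene abcf-3, the release factor gene erfa-1, and the mitochondrial elongation factor genes tufm-2 and gfm-1. The strongest was drr-2, with ranks of 66, 48 and 56 in replicates 1, 2 and 3, at a summit shared with set-16. For erfa-1 the ranks were 1079, 220 and 119. All but gfm-1 shared the peak with another promoter, that of pab-1 with the ribosomal gene rpl-30. The mTOR kinase gene let-363, its target kinase gene rsks-1, the eIF2 kinase gene pek-1, the eIF4E-binding protein gene ifet-1 and the release factor gene erfa-3 had no consistent peak.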

How the data were processed

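Per the labels and the records deposited with the files, LIN-15B ChIP-seq of 3 replicates gave 1 peak and background list each, plus 1 made from all 3 alignments, on ce11. The aligner is not given in the sources used here, nor is the peak caller. Each deposited list holds 30000 intervals with a signal value by the authors, which served here to order peaks inside each list, and a q value field treated as a score, since values below 0 occur in the series-wide list. The ce10 lists were not used.

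Each series-wide peak was matched to the strongest replicate peak overlapping it by 1 bp or more. The IDR mixture model was then fitted to 6511, 7012 and 6127 matched peaks for replicates 1 and 2, 1 and 3, and 2 and 3, with tied values ordered at random (seed 1). Peaks were assigned to every protein-coding gene of Ensembl release 115 (WBcel235, the build of ce11) whose promoter held the summit. Sets of genes were compared by counts, with no set test. The model, the assignment and the matching were tested on simulated data. Python 3.11.15, numpy 2.4.6, scipy 1.17.1 and pandas 2.3.3 were used.

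Genes named are all members with a consistent peak, each other member with a promoter peak stronger than rank 5000 in a replicate, and the rest by group. Alternatives covered the IDR threshold, matching, promoter size, transcript starts, a pass without IDR and each replicate left out. Members, lists and motifs were chosen with earlier results of these data known. Peak lists give no read counts, so depth is unknown and no interval that needs it was computed.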

Additional observations from a re-analysis of the deposited data

How the results depend on the processing

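The count of 15 translation factor genes with a consistent promoter peak lay within 1.5 times under 11 of 13 alternatives. It was 24 when a pass in any pair was enough, with 9.66% of all genes. When a replicate was left out it was 15 to 24, with 5.53% to 9.21% of all genes, and it was 24 without replicate 1. With promoters shortened to 250 bp upstream and 100 bp downstream it was 10, losing eef-1A.1, eef-1A.2, eif-1, eif-1.A and eif-6. With the nearest transcript start only it was 11, losing eef-1A.1, eif-1, eif-2Bbeta and eif-6. A q score of 2 or more in every replicate in place of IDR also gave 11, and the 1000 strongest peaks of every replicate gave 13. The share of all genes fell from 5.25% as well. It was 3.51% with the shorter promoter and 3.78% with the nearest start. The q score gave 3.21% and the 1000 strongest peaks 3.77%. Of 195 recomputed calls of the 15 called genes, 180 were kept and 15 lost. Among the other 25, the same 9 genes gained a call with a pass in any pair and without replicate 1, eif-3.J with 1000 bp upstream, and iff-1 without replicate 2.

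The count of 21 members with a promoter peak listed in every replicate was 11 with the shorter promoter and 27 with 1000 bp upstream. Among the 5000 strongest peaks of each list it was 16. When a replicate was left out it was 22 to 31. Over all protein-coding genes the share was 11.8%, against 6.32% with the shorter promoter and 17.9% with 1000 bp upstream. That share was 6.17% among the 5000 strongest peaks and 15.9% to 18.8% with a replicate left out. The median of mean ranks, 210.7, was 215.5 to 253 when a replicate was left out. The median summit distance, 217 bp, was 192 bp with the summits of replicate 3. A single group without read counts allows no test between conditions. No paired analysis was possible because there is only 1 group.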

Other observations

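A pair of eIF3 subunit genes fell outside the symbol rule and was looked up after the other values were known. The gene egl-45, which encodes the eIF3A subunit, had a listed promoter peak of rank 1282 in replicate 3 and none in replicates 1 and 2. The gene cif-1, which encodes a protein shared by eIF3 and the COP9 signalosome, had ranks of 26459, 5976 and 24836 in replicates 1, 2 and 3. Neither had a consistent promoter peak.

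By chromosome, the 15 genes with a consistent peak fell on I (6 of 12 members), II (3 of 12), III (2 of 7), IV (2 of 2), V (1 of 4) and X (1 of 3). Over all protein-coding genes the shares were 8.3%, 4.9%, 9.39%, 5.73%, 3.02% and 1.94% in that order.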
